A study of Mus musculus with 20 samples.

Results

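Glutathione transferases, alcohol dehydrogenases, aldehyde dehydrogenases, aldo-keto reductases and carbonyl reductases were followed in whole testes of mice after heat shock. Members were taken by symbol, as every gene of the chip annotation named Gsta, Gstk, Gstm, Gsto, Gstp, Gstt, Gstz, Adh, Aldh, Akr or Cbr with a number, without Aldh18a1, which carries an Aldh symbol but makes proline. This gave 65 of the 18193 genes with a probe set of their own: 20 glutathione transferases, 7 alcohol dehydrogenases, 19 aldehyde dehydrogenases, 15 aldo-keto reductases and 4 carbonyl reductases. The samples were testes of AKR/N and C57BL/6 mice, both 8 weeks old, as controls without heat and at 8, 10, 12 and 24 h following a heat shock of 43 °C for 15 min. Each of the 10 groups had 2 arrays, 20 arrays in all, and no transgene, mutation or drug is named for any of them. The controls carry no time of their own, so heat and time of sampling cannot be told apart. Whether both arrays of a group stand for different animals is not stated, so the p-values cover the spread between 2 samples that could differ by technique alone.

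These enzymes remove reactive small molecules. Alcohol dehydrogenases, aldo-keto reductases and carbonyl reductases convert alcohols, aldehydes and ketones into each other, aldehyde dehydrogenases oxidise aldehydes to acids, and glutathione transferases attach glutathione to electrophiles such as the aldehydes that lipid peroxidation releases. In the testis some of them have a second role, since retinol is oxidised by alcohol dehydrogenases and related enzymes and then by the ALDH1A enzymes to retinoic acid, which germ cells need to enter meiosis, and several aldo-keto reductases act on steroids. Many members are known targets of NRF2, a transcription factor that answers oxidative and electrophilic stress by binding antioxidant response elements.

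Short stretches of 5 promoters are shown, each with a sequence known from stress-responsive promoters. Adh1, Cbr3, Gstp1 and Aldh1a1 are among the called members described in most detail, and Gstm7 is shown as a called member whose promoter holds the antioxidant core, although its probe sets differ. The sequences are from RefSeq on GRCm38.p6, which had a promoter of 250 bases before to 50 after the start for 54 of the 65 members, and capitals mark the motif. The motifs searched on both strands were TGACNNNGC, the core of the antioxidant response element, GAANNTTC, a facing pair of heat shock units, and TGAGTCA, the AP-1 site, and those shown overlap no other motif searched.
Adh1, chr3:138277335-138277374, plus strand: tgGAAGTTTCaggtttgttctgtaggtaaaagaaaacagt
Cbr3, chr16:93682969-93683031, plus strand: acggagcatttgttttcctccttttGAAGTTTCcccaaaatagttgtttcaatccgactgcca
Gstp1, chr19:4037950-4038016, minus strand: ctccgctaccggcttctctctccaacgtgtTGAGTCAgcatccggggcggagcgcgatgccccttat
Aldh1a1, chr19:20492496-20492562, plus strand: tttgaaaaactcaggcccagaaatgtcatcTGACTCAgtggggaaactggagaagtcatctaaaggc
Gstm7, chr3:107931705-107931773, minus strand: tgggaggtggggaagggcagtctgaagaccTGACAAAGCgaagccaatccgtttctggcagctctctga
The first base of the motif stood at -248 from the start in Adh1, -225 in Cbr3, -74 in Gstp1, -57 in Aldh1a1, where it is the AP-1 site read on the other strand, and -129 in Gstm7. A gene was counted when any of its promoters held the motif. The antioxidant core was found for 8 of the 54 members (14.8%), against 14.0% of 27025 genes of the genome. The heat shock pair was found for 7 members (13%), against 9.0% of all genes, and the AP-1 site for 4 (7.4%), against 5.9% of all genes. A match is a description of these letters only.

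Signals are the deposited intensity of each probe set, scaled to one trimmed mean for every array. Array medians ran from 24.9 to 34.9, the correlation of replicate arrays across genes was 0.970 to 0.988, and the 3'/5' ratio of beta-actin ran from 1.87 to 3.57. The highest ratio and the highest median were both on C57BL/6 12 h replicate 2. The sperm gene Prm1 read 8847 to 11483 on every array, while the liver gene Alb read 3.2 to 45.4 and the epididymal gene Lcn5 0.8 to 19.3. Other genes of neighbouring tissues read higher. The epididymal gene Spink8 read 8.3 to 151.6, and the adipose genes Adipoq and Fabp4 read 155.7 to 379.9 and 35.7 to 721.8. Whether other tissue was attached to the testes was not tested. Signals were used as log2 of signal plus 16, a scale that understates the change of dim genes, and a gene was tested when at least 1 group mean reached a log2 value of 5.07. All changes below are differences of group means on this log2 scale with the standard error (SE) of the limma fit over all 20 arrays, and a gene was called at a Benjamini-Hochberg adjusted p under 0.05 over 15762 genes. Of the 65 members, 50 reached the filter value in all 10 groups and 8 in some of them, so 58 were tested. The 7 that were too dim in every group were Adh6-ps1, Adh6a, Adh6b, Akr1c12, Akr1c18, Akr1c6 and Gstp3. Because whole testes were measured, fewer cells of a type and less RNA per cell cannot be told apart.

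Members rose late and were called higher more often than lower. At 24 h, 19 of 58 members were higher in heated AKR/N testes than in AKR/N controls and 1 was lower, while over all genes tested 12.3% were higher and 11.1% lower. In C57BL/6, 20 members were higher at 24 h and 7 lower, against 21.4% and 16.6% of all genes. As shares of the members these are 32.8% higher and 1.72% lower in AKR/N, and 34.5% higher and 12.1% lower in C57BL/6. The share of members that rose was thus above the background in both strains, and the share that fell was below it. The 20 in C57BL/6 include Akr1c14, which reached the filter value only at 24 h and had to be high there to be tested. With 1 array left out, the AKR/N rises numbered 12 without 24 h replicate 1, 8 without 24 h replicate 2, 12 without control replicate 1 and 14 without control replicate 2, and the AKR/N falls 0 to 2. In C57BL/6 the rises numbered 17 to 20 and the falls 3 without 24 h replicate 1, 4 without control replicate 2 and 5 without either other array. The share of all genes called in these fits with an array left out was not taken. Whether the members stay above the background there was therefore not tested. With all arrays, the median change of the members at 24 h was 0.09 in AKR/N, against -0.01 for all genes, and 0.29 in C57BL/6, against 0.08.

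Fewer members were called at earlier times than at 24 h, and more of them in C57BL/6, with 18 at 12 h there and 8 at 12 h in AKR/N. At 8 h no member was called by limma in either strain, with 3 members in AKR/N and 7 in C57BL/6 at an unadjusted p under 0.05. The background at 8 h was 0.0254% higher and 0.0127% lower in AKR/N, and 0.0888% higher and 0% lower in C57BL/6. At 10 h no member was called in AKR/N (2 at an unadjusted p under 0.05), where 1.44% of all genes were higher and 1.19% lower. In C57BL/6 at 10 h, 5 members were higher and 3 lower, against 6% and 5.19% of all genes. At 12 h, 5 members were higher and 3 lower in AKR/N, against 3.8% and 3.2% of all genes. In C57BL/6 at 12 h, 14 members were higher and 4 lower, against 9.71% and 9.38% of all genes. The member shares in C57BL/6 were near the background at 10 h (8.62% higher and 5.17% lower), and at 12 h only the rises, 24.1%, lay above it. Of the calls, 0 of 8 at 12 h in AKR/N, and 1 of 8 at 10 h and 5 of 18 at 12 h in C57BL/6, held with each of 4 arrays left out in turn. With each array centred on its median, the counts were 3 at 12 h in AKR/N and 3 at 10 h and 9 at 12 h in C57BL/6. Contrasts within a strain share the same control arrays. With that centring all genes split into 730 higher and 1674 lower calls at 12 h in C57BL/6, where the main scaling gave 1531 and 1479, and into 2316 and 2985 at 24 h, where it gave 3366 and 2623.

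**Figure D1:**
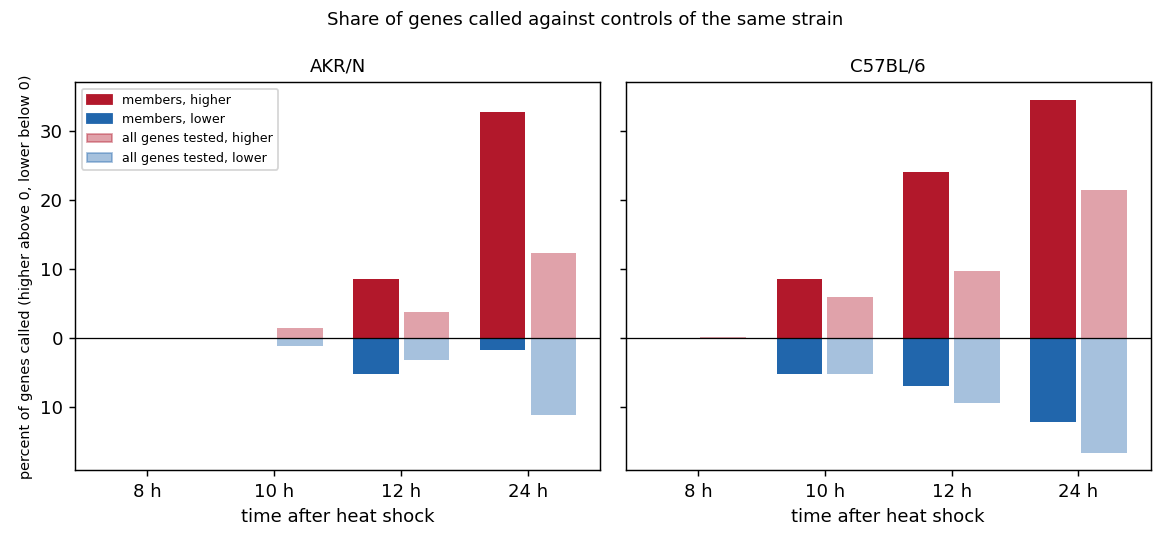
Percent of genes called at each time after heat shock in AKR/N (left) and C57BL/6 (right), against controls of the same strain. Full colours are the 58 members and pale colours all 15762 genes tested; red bars above 0 are genes called higher and blue bars below 0 genes called lower, and at 24 h the red member bars reach 32.8% and 34.5%.

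**Figure D2:**
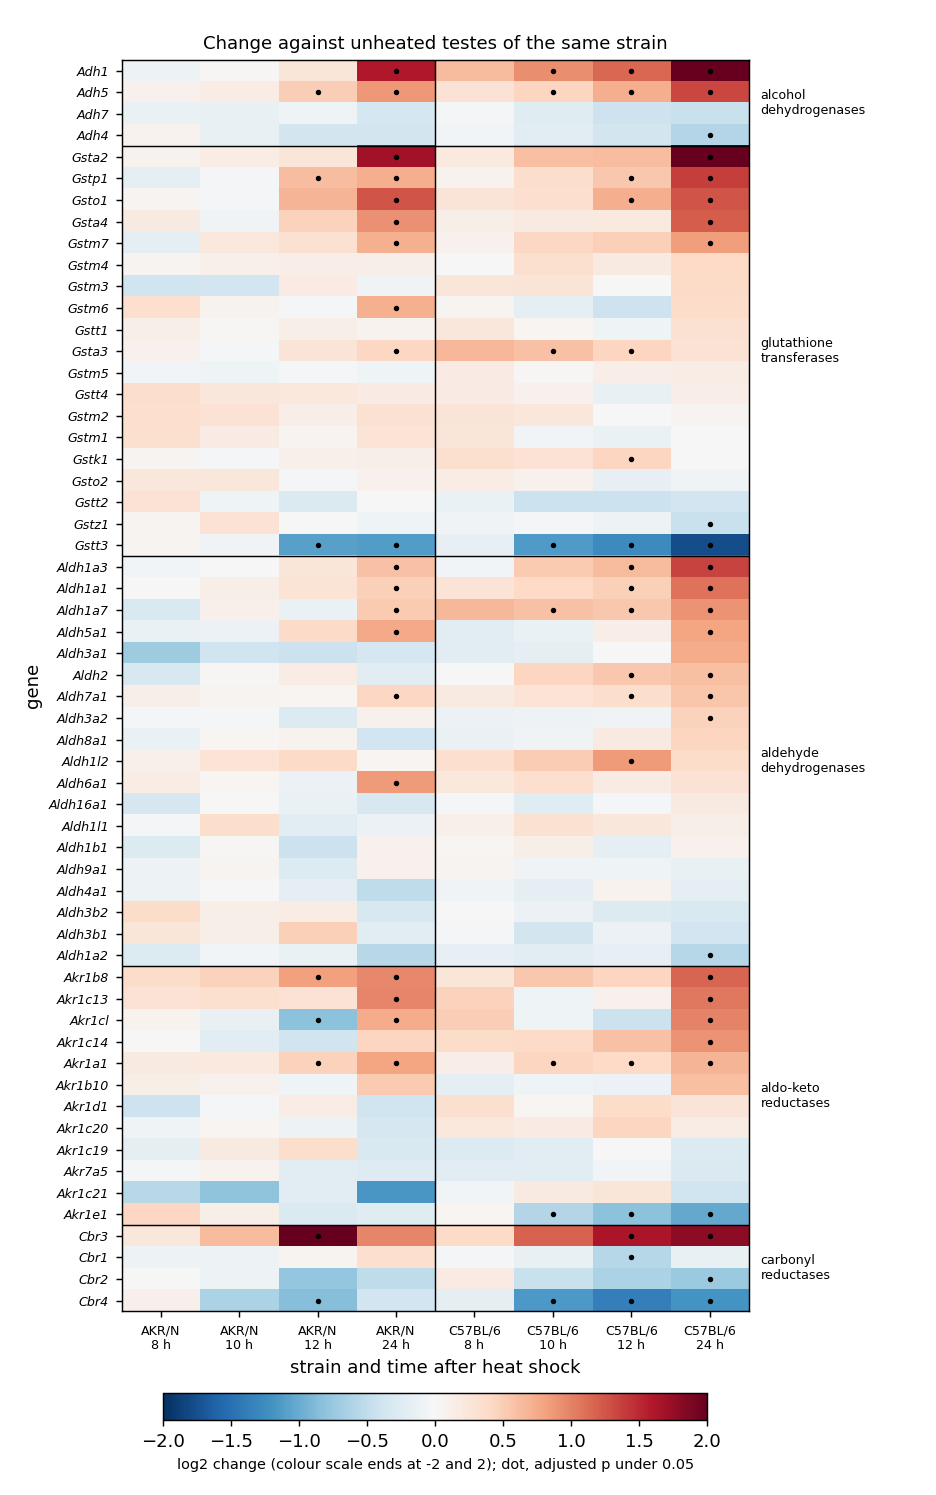
Log2 change of each of the 58 tested members (rows, by family) against unheated testes of the same strain, at 4 times in AKR/N (left) and C57BL/6 (right). Red is higher and blue lower after heat, with colours held at 2 and -2, and a dot marks an adjusted p under 0.05; most dots lie in the 24 h columns.

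The alcohol dehydrogenases showed the largest rise of any member. Adh1, the class I enzyme that oxidises ethanol and retinol, read 181 and 214 in AKR/N controls, 169.6 and 194 at 8 h, 186 and 214 at 10 h, 252 and 220.0 at 12 h and 589.7 and 671 at 24 h. In C57BL/6 it read 38.2 and 53.1 in controls, 81.9 and 75.5 at 8 h, 98.1 and 104 at 10 h, 169 and 84.2 at 12 h and 504 and 475 at 24 h. In both strains the 24 h arrays lay above all other arrays of the strain, and in C57BL/6 every heated array lay above both controls. The 24 h change was 1.60 ± 0.22 in AKR/N (adjusted p = 0.000521) and 3.04 ± 0.22 in C57BL/6 (adjusted p = 1.94e-06), where it had already passed the test at 10 h (0.93 ± 0.22, adjusted p = 0.0183) and 12 h (1.15 ± 0.22, adjusted p = 0.0037). The 10 h call ended without 10 h replicate 1 (adjusted p = 0.0727), 10 h replicate 2 (adjusted p = 0.0941) or control replicate 1 (adjusted p = 0.14), and the 12 h change was 0.71 without 12 h replicate 1 (adjusted p = 0.0195).

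Adh5, the class III enzyme that clears S-nitrosoglutathione, and formaldehyde once this is bound to glutathione, rose more evenly. Its signals at 24 h were 736 and 819 in AKR/N, against 420.2 and 417 in controls, and 1059.6 and 961 in C57BL/6, against 391 and 391 in controls. The groups did not overlap in either strain. The change was 0.87 ± 0.12 in AKR/N (adjusted p = 0.000487) and 1.33 ± 0.12 in C57BL/6 (adjusted p = 5.6e-06). At 12 h it was 0.49 ± 0.12 in AKR/N (adjusted p = 0.0265) and 0.73 ± 0.12 in C57BL/6 (adjusted p = 0.00144), and at 10 h 0.43 ± 0.12 in C57BL/6 (adjusted p = 0.0357). The AKR/N 12 h call ended with any one of 4 arrays left out (change 0.46 to 0.53, adjusted p 0.0588 to 0.15), and the C57BL/6 10 h call with any one of 4 arrays left out (change 0.41 to 0.44, adjusted p 0.113 to 0.15). The 24 h AKR/N call ended with the mean of all probe sets of the gene (change 0.34, adjusted p = 0.0877), where the C57BL/6 change was 0.43 (adjusted p = 0.0217). That mean also ended the C57BL/6 calls at 12 h (0.28, adjusted p = 0.173) and at 10 h, where the change was -0.03 (adjusted p = 0.914). The other Adh5 probe set lay under the filter value in every group, so this mean takes in a dim reading.

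The other tested alcohol dehydrogenases were not called higher. Adh4, the class II enzyme, which takes retinol and quinones, read 152 and 129.8 in AKR/N at 24 h, against 192 and 179.7 in controls, and 130.2 and 156 in C57BL/6, against 228 and 216 in controls. All heated 24 h arrays lay below the controls of their strain. The change was -0.37 ± 0.15 in AKR/N (adjusted p = 0.0892) and -0.58 ± 0.15 in C57BL/6 (adjusted p = 0.00705), where it passed the test and the call ended without 24 h replicate 1 (adjusted p = 0.0776). Adh7, the class IV enzyme, a retinol dehydrogenase of epithelia, was called at no time, with changes of its main probe set between -0.44 and -0.02 over the 8 heat contrasts. A second Adh7 probe set went the other way in C57BL/6, by 0.37 at 10 h, 0.28 at 12 h and 0.28 at 24 h. In AKR/N that probe set changed by -0.61 at 24 h. The 7 Adh genes lie side by side on chromosome 3, and of the 4 tested there 2 rose in both strains.

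**Figure D3:**
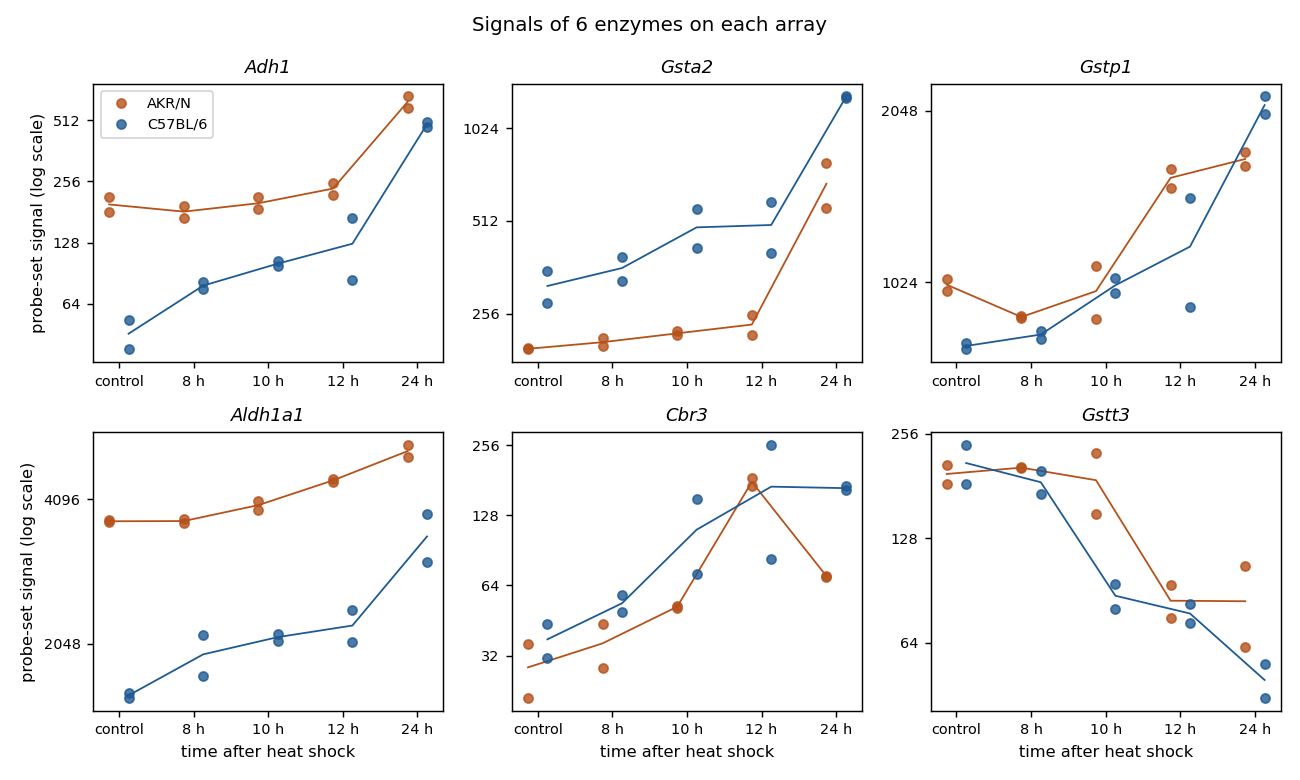
Probe-set signal on each array (points, logarithmic axes) and group mean (lines) for 6 members in controls and at 8, 10, 12 and 24 h after heat shock, with AKR/N left of C57BL/6 in each pair. Adh1, Gsta2 and Aldh1a1 reach their highest group mean at 24 h in both strains, Cbr3 reaches its AKR/N maximum at 12 h, and Gstt3 is lowest at 24 h in C57BL/6.

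Among the glutathione transferases, alpha, pi, omega and 1 or 2 mu genes rose and a theta gene fell. At 24 h, 7 of 19 tested transferases (36.8%) were higher and 1 (5.26%) lower in AKR/N, against 12.3% and 11.1% of all genes. In C57BL/6, 5 (26.3%) were higher, near the 21.4% of all genes, and 2 (10.5%) were lower, against 16.6%. The alpha class carries much of the conjugation of lipid aldehydes and hydroperoxides. Gsta2 read 198 and 196 in AKR/N controls, 213 and 201 at 8 h, 218 and 224 at 10 h, 254 and 219 at 12 h and 562 and 789.7 at 24 h. C57BL/6 arrays read 352 and 278 in controls, 393 and 328 at 8 h, 558 and 418 at 10 h, 592 and 402 at 12 h and 1282 and 1298 at 24 h. The 24 h arrays were the highest of each strain. The 24 h change was 1.68 ± 0.20 in AKR/N (adjusted p = 0.000305) and 1.99 ± 0.20 in C57BL/6 (adjusted p = 1.32e-05). Gsta1 and Gsta2 are near-identical, and a probe set annotated to Gsta2, Gsta1 and Gm3776 together moved the same way, with 337 and 378 in AKR/N at 24 h, against 139 and 181 in controls, and 867 and 750.5 in C57BL/6, against 233 and 203 in controls. Which of these genes the signal comes from was not tested.

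Gsta4, whose enzyme has a known preference for 4-hydroxynonenal, a product of lipid peroxidation, read 1742 and 1823 in AKR/N at 24 h, against 922 and 950.1 in controls, and 1754 and 1446 in C57BL/6, against 671 and 694 in controls. The change was 0.92 ± 0.14 in AKR/N (adjusted p = 0.000851) and 1.20 ± 0.14 in C57BL/6 (adjusted p = 2.84e-05), and both calls held with each array left out. At 12 h C57BL/6 arrays read 915 and 671 and overlapped the controls. Gsta3, an alpha enzyme that also isomerises steroids, read 318 and 352 in AKR/N at 24 h, against 225 and 269 in controls, a change of 0.42 ± 0.14, adjusted p = 0.0457. Its C57BL/6 signals were 147 and 146 in controls, 212 and 278 at 8 h, 215 and 242 at 10 h, 196 and 209 at 12 h and 193 and 173 at 24 h. All heated C57BL/6 arrays stood above the controls, and the change passed the test at 10 h (0.58 ± 0.14, adjusted p = 0.019) and 12 h (0.43 ± 0.14, adjusted p = 0.0488) but not at 24 h (0.29 ± 0.14, adjusted p = 0.125). The AKR/N call ended without 24 h replicate 1 (adjusted p = 0.0739), 24 h replicate 2 (adjusted p = 0.248) or control replicate 1 (adjusted p = 0.26), and also without the filter on dim genes (adjusted p = 0.056), with median centring (adjusted p = 0.0918), with probe sets without a suffix (adjusted p = 0.0526) or with only the arrays compared (adjusted p = 0.0744). The C57BL/6 10 h call ended with any one of 4 arrays left out (change 0.51 to 0.66, adjusted p 0.0521 to 0.124), and the 12 h call with any one of 4 arrays left out (change 0.38 to 0.47, adjusted p 0.0818 to 0.186). A second Gsta3 probe set changed by 0.43 in AKR/N and 0.80 in C57BL/6 at 24 h.

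Gstp1, the pi class enzyme and an inhibitor of JNK signalling, read 1039.8 and 989 in AKR/N controls, 887 and 894 at 8 h, 1094 and 883 at 10 h, 1623 and 1503 at 12 h and 1639.6 and 1734 at 24 h. The C57BL/6 values were 803 and 781 in controls, 816 and 843 at 8 h, 1043 and 982 at 10 h, 1438 and 929 at 12 h and 2173 and 2021 at 24 h. In AKR/N the 12 h and 24 h arrays lay above every earlier array, and in C57BL/6 every heated array lay above the controls. The 24 h change was 0.72 ± 0.17 in AKR/N (adjusted p = 0.00826) and 1.39 ± 0.17 in C57BL/6 (adjusted p = 4e-05). At 12 h it was 0.61 ± 0.17 in AKR/N (adjusted p = 0.0427) and 0.54 ± 0.17 in C57BL/6 (adjusted p = 0.0389). The 24 h AKR/N call ended without 24 h replicate 2 (adjusted p = 0.0696), the 12 h AKR/N call with any one of 4 arrays left out (change 0.56 to 0.67, adjusted p 0.0845 to 0.207), and the 12 h C57BL/6 call without 12 h replicate 1 (change 0.23, adjusted p = 0.297), control replicate 1 (adjusted p = 0.121) or control replicate 2 (adjusted p = 0.157). Without 12 h replicate 2 the 12 h C57BL/6 change was 0.85 (adjusted p = 0.00554). The promoter stretch of Gstp1 printed above holds the AP-1 site.

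Gsto1, an omega class enzyme with thioltransferase and dehydroascorbate reductase activity, read 107 and 123 in AKR/N at 24 h, against 35.8 and 41.2 in controls, and 175 and 148 in C57BL/6, against 81.9 and 40.5 in controls. The arrays did not overlap in either strain. The change was 1.26 ± 0.21 in AKR/N (adjusted p = 0.00137) and 1.25 ± 0.21 in C57BL/6 (adjusted p = 0.000407), and at 12 h 0.73 ± 0.21 in C57BL/6 (adjusted p = 0.0272). This probe set carries the suffix that marks probes shared between transcripts, and the gene's other probe set gave 24 h changes of 0.49 in AKR/N (adjusted p = 0.117) and 0.44 in C57BL/6 (adjusted p = 0.13). At 12 h in C57BL/6 the other probe set gave -0.15 (adjusted p = 0.676), and the call of the first ended without 12 h replicate 2 (adjusted p = 0.164) or control replicate 2 (change 0.33, adjusted p = 0.288), while without control replicate 1 the change was 1.13 (adjusted p = 0.0071). The mean of both Gsto1 probe sets gave 0.29 there (adjusted p = 0.197). Its chromosomal neighbour Gsto2 was called at no time.

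The mu class was largely flat. Gstm1, Gstm2, Gstm3, Gstm4 and Gstm5 were called at no time in either strain. Gstm5 read 8884 and 9471 in AKR/N at 24 h, against 9725 and 9673 in controls, and 9654 and 9830.1 in C57BL/6, against 8467 and 9116 in controls, and changed by -0.08 and 0.15 in those strains. Gstm1 and Gstm2 share much of their sequence, so a change of one could be read by the probes of the other. Gstm7 read 467 and 489 in AKR/N at 24 h, against 317 and 255 in controls, and 487 and 417 in C57BL/6, against 249 and 241 in controls. Its arrays did not overlap in either strain, and the change was 0.72 ± 0.17 in AKR/N (adjusted p = 0.00965) and 0.84 ± 0.17 in C57BL/6 (adjusted p = 0.00175). A second Gstm7 probe set changed by -0.70 in AKR/N and 0.11 in C57BL/6, and with the mean of both the calls were lost (0.01, adjusted p = 0.981, in AKR/N and 0.47, adjusted p = 0.133, in C57BL/6). The AKR/N call also ended without 24 h replicate 2 (adjusted p = 0.0746) or control replicate 2 (adjusted p = 0.0817). Gstm6 rose in AKR/N at 24 h, 442 and 457 against 228 and 314 in controls, a change of 0.71 ± 0.23, adjusted p = 0.0353, and changed by 0.37 ± 0.23 in C57BL/6 (adjusted p = 0.216). That AKR/N call ended without 24 h replicate 1 (adjusted p = 0.0945), 24 h replicate 2 (adjusted p = 0.159) or control replicate 1 (adjusted p = 0.235), and with median centring (adjusted p = 0.0647). The 7 mu genes lie side by side on chromosome 3, and of them 2 rose at 24 h in AKR/N and 1 in C57BL/6.

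Gstt3, a theta class transferase, showed the deepest fall of any member. It read 208 and 184 in AKR/N controls, 204 and 206 at 8 h, 151 and 226 at 10 h, 75.4 and 93.6 at 12 h and 106 and 62.1 at 24 h. In C57BL/6 it read 184 and 238 in controls, 171 and 200.1 at 8 h, 80 and 94.7 at 10 h, 82.6 and 72.6 at 12 h and 55.5 and 44.2 at 24 h. Low arrays began at 10 h in C57BL/6 and at 12 h in AKR/N, and from then on no heated array reached a control. The 24 h change was -1.12 ± 0.22 in AKR/N (adjusted p = 0.0036) and -1.78 ± 0.22 in C57BL/6 (adjusted p = 4.91e-05). It had passed the test at 12 h in AKR/N (-1.08 ± 0.22, adjusted p = 0.0129) and at 10 h (-1.13 ± 0.22, adjusted p = 0.0078) and 12 h (-1.27 ± 0.22, adjusted p = 0.00208) in C57BL/6. The AKR/N 24 h call ended without 24 h replicate 2 (adjusted p = 0.0601), the AKR/N 12 h call without 12 h replicate 1 (adjusted p = 0.115) or control replicate 1 (adjusted p = 0.083), and the C57BL/6 10 h call without 10 h replicate 1 (adjusted p = 0.0558) or control replicate 2 (adjusted p = 0.0723). Its neighbours on chromosome 10, Gstt1, Gstt2 and Gstt4, were called at no time, so 1 of the 4 theta genes fell.

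The single members of the other transferase classes changed little. In AKR/N at 24 h Gstk1 changed by 0.11 and Gstz1 by -0.09, and neither was called. Gstk1, the kappa enzyme of mitochondria and peroxisomes, was higher at 12 h in C57BL/6 (0.43 ± 0.13, adjusted p = 0.0391), a call that ended with any one of 4 arrays left out (change 0.38 to 0.47, adjusted p 0.087 to 0.185). Gstz1, the zeta enzyme of tyrosine breakdown, was lower at 24 h in C57BL/6 (-0.45 ± 0.17, adjusted p = 0.0497), and this call ended with any one of 4 arrays left out (change -0.47 to -0.42, adjusted p 0.129 to 0.158), and with a pseudocount of 1 (adjusted p = 0.0536), without the filter on dim genes (adjusted p = 0.0595), with probe sets without a suffix (adjusted p = 0.0554) or with only the arrays compared (adjusted p = 0.084).

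Of the retinaldehyde dehydrogenases, Aldh1a1 and Aldh1a3 rose in both strains and Aldh1a2 fell in C57BL/6. These 3 enzymes make retinoic acid. Aldh1a1 read 3703 and 3667 in AKR/N controls, 3717 and 3661 at 8 h, 3896 and 4067 at 10 h, 4449 and 4515 at 12 h and 5003 and 5309.8 at 24 h. C57BL/6 arrays read 1581 and 1622 in controls, 2140.4 and 1757 at 8 h, 2150.5 and 2082 at 10 h, 2408 and 2066 at 12 h and 3823 and 3031 at 24 h. The 24 h arrays were the highest of each strain. The change was 0.48 ± 0.13 in AKR/N (adjusted p = 0.0202) and 1.08 ± 0.13 in C57BL/6 (adjusted p = 4.85e-05), and 0.47 ± 0.13 at 12 h in C57BL/6 (adjusted p = 0.0258). The AKR/N call ended with any one of 4 arrays left out (change 0.44 to 0.53, adjusted p 0.0509 to 0.132), and with median centring (adjusted p = 0.0539). The C57BL/6 12 h call ended without 12 h replicate 1 (adjusted p = 0.128), control replicate 1 (adjusted p = 0.114) or control replicate 2 (adjusted p = 0.0986).

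Aldh1a3 read 66.7 and 75.6 in AKR/N at 24 h, against 48.9 and 36.1 in controls, and 138 and 90.7 in C57BL/6, against 30.5 and 38 in controls. No 24 h array reached down to a control. The change was 0.58 ± 0.18 in AKR/N (adjusted p = 0.0292) and 1.36 ± 0.18 in C57BL/6 (adjusted p = 6.47e-05), and 0.63 ± 0.18 at 12 h in C57BL/6 (adjusted p = 0.0237). A second probe set gave 0.23 in AKR/N and 1.32 in C57BL/6 at 24 h, and the gene's remaining probe set lay under the filter value in every group. The AKR/N call ended without 24 h replicate 1 (adjusted p = 0.0585), 24 h replicate 2 (adjusted p = 0.178) or control replicate 2 (adjusted p = 0.19), and with quantile normalization (adjusted p = 0.0608) or with the mean of all probe sets of the gene (change 0.20, adjusted p = 0.396). The C57BL/6 12 h call ended with any one of 4 arrays left out (change 0.53 to 0.74, adjusted p 0.0504 to 0.146). Aldh1a2, known in mouse as the retinaldehyde dehydrogenase of germ cells, read 692 and 580.0 in AKR/N at 24 h, against 988 and 886 in controls, and 596 and 516 in C57BL/6, against 813 and 842 in controls. All of its 24 h arrays lay below the controls of the strain. Its change was -0.55 ± 0.20 in AKR/N (adjusted p = 0.0574) and -0.56 ± 0.20 in C57BL/6 (adjusted p = 0.0358), where the call ended with any one of 4 arrays left out (change -0.67 to -0.46, adjusted p 0.064 to 0.181), and with quantile normalization (adjusted p = 0.0952).

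Aldh1a7, a rodent paralog next to Aldh1a1 on chromosome 19, rose with it at 24 h. It read 141 and 176 in AKR/N at 24 h, against 107 and 102 in controls, and 265 and 252 in C57BL/6, against 131 and 131 in controls. In C57BL/6 every heated array from 8 h on stood above the controls. The 24 h change was 0.53 ± 0.15 in AKR/N (adjusted p = 0.023) and 0.90 ± 0.15 in C57BL/6 (adjusted p = 0.000403), which had 0.59 ± 0.15 at 10 h (adjusted p = 0.0256) and 0.55 ± 0.15 at 12 h (adjusted p = 0.0232). The AKR/N call ended without 24 h replicate 2 (adjusted p = 0.212), control replicate 1 (adjusted p = 0.0705) or control replicate 2 (adjusted p = 0.1), and with only the arrays compared (adjusted p = 0.0619). The C57BL/6 10 h call ended with any one of 4 arrays left out (change 0.52 to 0.65, adjusted p 0.0695 to 0.141), and the 12 h call without 12 h replicate 2 (adjusted p = 0.112), control replicate 1 (adjusted p = 0.0937) or control replicate 2 (adjusted p = 0.104). The 2 genes are close in sequence, and whether their probe sets read each other's transcripts was not tested.

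Of 19 tested aldehyde dehydrogenases, 6 (31.6%) were higher at 24 h in AKR/N and none lower, against 12.3% and 11.1% of all genes. In C57BL/6, 7 (36.8%) were higher and 1 (5.26%) lower, against 21.4% and 16.6%. Outside the ALDH1A group, Aldh5a1 and Aldh7a1 were called higher at 24 h in both strains and Aldh6a1 in AKR/N. Aldh5a1, succinic semialdehyde dehydrogenase, read 66.2 and 73.2 in AKR/N, against 46.6 and 25.2 in controls, and 76.7 and 52.7 in C57BL/6, against 39.5 and 22.7 in controls, with changes of 0.75 ± 0.23 in AKR/N (adjusted p = 0.0293) and 0.78 ± 0.23 in C57BL/6 (adjusted p = 0.0147). The arrays did not overlap, but the AKR/N call ended without 24 h replicate 1 (adjusted p = 0.0705), 24 h replicate 2 (adjusted p = 0.159) or control replicate 2 (change 0.45, adjusted p = 0.24), and with a pseudocount of 1 (adjusted p = 0.0524). The C57BL/6 call ended without 24 h replicate 1 (adjusted p = 0.145) or control replicate 2 (adjusted p = 0.163). Aldh6a1, methylmalonate semialdehyde dehydrogenase, read 355 and 362 in AKR/N at 24 h, against 191 and 194 in controls, a change of 0.85 ± 0.14, adjusted p = 0.00133 that held with each array left out. In C57BL/6 it changed by 0.28 ± 0.14, adjusted p = 0.13. Aldh7a1, the lysine pathway enzyme, changed by 0.41 ± 0.11 in AKR/N (adjusted p = 0.018) and 0.56 ± 0.11 in C57BL/6 (adjusted p = 0.00156), and by 0.36 ± 0.11 at 12 h in C57BL/6 (adjusted p = 0.039). A second Aldh7a1 probe set, with no test of its own, changed by -0.39 in AKR/N and -0.53 in C57BL/6 at 24 h, so the direction of this gene differed between its probe sets. The AKR/N call of Aldh7a1 ended with any one of 4 arrays left out (change 0.40 to 0.43, adjusted p 0.0623 to 0.0964), and the C57BL/6 12 h call with any one of 4 arrays left out (change 0.29 to 0.43, adjusted p 0.0804 to 0.21). The mean of all 3 probe sets of the gene ended all 3 calls, with changes of -0.06 in AKR/N and 0.03 in C57BL/6 at 24 h and -0.18 at 12 h in C57BL/6. The remaining probe set in that mean lay under the filter value in every group.

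Aldh2, the mitochondrial enzyme that clears acetaldehyde, rose in C57BL/6. In AKR/N it read 715 and 704 at 24 h, against 844 and 804 in controls, a change of -0.21 ± 0.16, adjusted p = 0.38. C57BL/6 testes read 983 and 861 at 24 h, against 590.2 and 606 in controls, a change of 0.61 ± 0.16, adjusted p = 0.00988, and changed by 0.54 ± 0.16 at 12 h (adjusted p = 0.0344). The AKR/N arrays at 24 h lay below the controls and the C57BL/6 ones above them, but the test of the difference gave -0.82 ± 0.23 (adjusted p = 0.0814). The C57BL/6 24 h call ended without 24 h replicate 1 (adjusted p = 0.0841) or control replicate 1 (adjusted p = 0.0524), and with the mean of all probe sets of the gene (adjusted p = 0.103). The 12 h call ended without 12 h replicate 2 (change 0.36, adjusted p = 0.243), control replicate 1 (adjusted p = 0.134) or control replicate 2 (adjusted p = 0.121), and with the mean of all probe sets (0.74, adjusted p = 0.0694). The gene's 4 other probe sets changed at 24 h by -0.34, -0.71, 0.67 and -0.14 in AKR/N and, in the same order, by 0.91, 0.81, 0.84 and -0.24 in C57BL/6. Aldh3a2, the fatty aldehyde dehydrogenase, changed by 0.09 in AKR/N at 24 h and was higher in C57BL/6 (0.47 ± 0.16, adjusted p = 0.0344), a call that ended with any one of 4 arrays left out (change 0.39 to 0.55, adjusted p 0.0596 to 0.185) and with median centring (adjusted p = 0.197) or with quantile normalization (adjusted p = 0.092). Aldh1l2, the mitochondrial formyltetrahydrofolate enzyme, was called at 12 h in C57BL/6 (0.85 ± 0.22, adjusted p = 0.0167). There its control mean lay under the filter value, and the call ended without 12 h replicate 1 (adjusted p = 0.0764) or control replicate 2 (adjusted p = 0.117). The other 9 aldehyde dehydrogenases, Aldh16a1, Aldh1b1, Aldh1l1, Aldh3a1, Aldh3b1, Aldh3b2, Aldh4a1, Aldh8a1 and Aldh9a1, were called at no time, with changes between -0.71 and 0.75 over the 8 heat contrasts.

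The aldo-keto reductases that changed mostly rose at 24 h. Of 12 tested, 4 (33.3%) were higher in AKR/N and none lower, against 12.3% and 11.1% of all genes. In C57BL/6, 5 (41.7%), counting the dim Akr1c14 described below, were higher and 1 (8.33%) lower, against 21.4% and 16.6%. Akr1a1, the general aldehyde reductase, read 2991 and 3439 in AKR/N at 24 h, against 1804 and 1896 in controls, and 3021 and 3073 in C57BL/6, against 1946 and 1847 in controls. Every heated array of both strains stood above the controls of its strain. The change was 0.79 ± 0.12 in AKR/N (adjusted p = 0.001) and 0.68 ± 0.12 in C57BL/6 (adjusted p = 0.0007). Smaller changes were called at 12 h in AKR/N (0.46 ± 0.12, adjusted p = 0.0394) and at 10 h (0.43 ± 0.12, adjusted p = 0.038) and 12 h (0.40 ± 0.12, adjusted p = 0.0357) in C57BL/6. The AKR/N 12 h call ended with any one of 4 arrays left out (change 0.42 to 0.49, adjusted p 0.0954 to 0.173). The C57BL/6 10 h call ended with any one of 4 arrays left out (change 0.38 to 0.49, adjusted p 0.0956 to 0.189), and the 12 h call without 12 h replicate 1 (change 0.26, adjusted p = 0.202), control replicate 1 (adjusted p = 0.0965) or control replicate 2 (adjusted p = 0.172). Its 3 other probe sets were higher at 24 h as well, by 0.34, 0.35 and 0.62 in AKR/N and by 0.55, 0.60 and 0.50 in C57BL/6. The mean of all 4 probe sets ended the C57BL/6 10 h call (0.29, adjusted p = 0.0902) and the AKR/N 12 h call (0.33, adjusted p = 0.0636).

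Akr1b8, an aldose reductase relative that reduces lipid aldehydes, read 1045 and 1057 in AKR/N at 24 h, against 474 and 603 in controls, and 1299 and 1293 in C57BL/6, against 604 and 539.7 in controls. Its AKR/N arrays stood above the controls at every time. The 24 h change was 0.95 ± 0.21 in AKR/N (adjusted p = 0.00701) and 1.16 ± 0.21 in C57BL/6 (adjusted p = 0.000802), and 0.82 ± 0.21 at 12 h in AKR/N (adjusted p = 0.0353). The 24 h AKR/N call ended without 24 h replicate 2 (adjusted p = 0.0557) or control replicate 1 (adjusted p = 0.0623), and the 12 h call with any one of 4 arrays left out (change 0.66 to 0.99, adjusted p 0.0596 to 0.195). Its neighbour Akr1b10 was not called, with 24 h changes of 0.52 in AKR/N and 0.59 in C57BL/6.

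In the AKR1C group, which holds hydroxysteroid dehydrogenases, Akr1c13 read 103 and 117 in AKR/N at 24 h, against 57.1 and 39.9 in controls, and 142 and 121 in C57BL/6, against 55.5 and 54.0 in controls. The 24 h arrays were the highest of each strain, and the change was 0.98 ± 0.19 in AKR/N (adjusted p = 0.00349) and 1.06 ± 0.19 in C57BL/6 (adjusted p = 0.000776). A probe set annotated to both Akr1c12 and Akr1c13 read 161 and 187 in AKR/N at 24 h, against 53.8 and 50 in controls, and 176 and 140.5 in C57BL/6, against 67.3 and 82.3 in controls. Akr1c14, the 3-alpha-hydroxysteroid dehydrogenase, changed by 0.43 ± 0.21 in AKR/N (adjusted p = 0.152) at 24 h and was higher in C57BL/6 (0.90 ± 0.21, adjusted p = 0.00386), where its control mean lay under the filter value. It reached that value only in the 24 h groups of both strains, so it was tested only through the groups where it was high. The size of its C57BL/6 change depends on the pseudocount, 2.58 with 1 and 0.31 with 64. Akr1c19, Akr1c20 and Akr1c21 were called at no time. Among the members called at no time, Akr1c21 had the largest change, -1.16 ± 0.44 at 24 h in AKR/N (adjusted p = 0.0753), with 4.35 and 3.97 against 46.5 and 16.4 in controls. Of the 9 genes of the Akr1c run on chromosome 13, 6 were tested, and at 24 h 1 rose in AKR/N and 2 rose and 1 fell in C57BL/6.

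Akr1cl, an AKR1C-like gene, was called higher at 24 h in both strains, and its main probe set was called lower at 12 h in AKR/N. It read 1849.8 and 1834 in AKR/N controls, 1926 and 1955 at 8 h, 1526 and 1818 at 10 h, 1159.9 and 916 at 12 h and 3176 and 2983 at 24 h. Its C57BL/6 signals were 1349 and 1252 in controls, 2092 and 1602 at 8 h, 978 and 1520.4 at 10 h, 1044 and 884 at 12 h and 2709 and 2507 at 24 h. In both strains the 12 h arrays lay below the controls and the 24 h arrays above them. The 12 h change was -0.83 ± 0.20 in AKR/N (adjusted p = 0.0251) and -0.43 ± 0.20 in C57BL/6 (adjusted p = 0.143), and the 24 h change 0.74 ± 0.20 in AKR/N (adjusted p = 0.0161) and 1.0 ± 0.20 in C57BL/6 (adjusted p = 0.00131). The AKR/N 12 h call ended with any one of 4 arrays left out (change -0.99 to -0.66, adjusted p 0.0652 to 0.118), and the 24 h call with any one of 4 arrays left out (change 0.69 to 0.78, adjusted p 0.0666 to 0.0749). The 12 h call ended also with the mean of all probe sets of the gene (change -0.43, adjusted p = 0.161). A second probe set gave 1.5 in AKR/N and 1.02 in C57BL/6 at 24 h. At 12 h it gave only -0.04 in AKR/N and -0.03 in C57BL/6, so it did not show the 12 h fall. At 8 h it gave -1.47 in AKR/N and -1.89 in C57BL/6, where the main probe set gave 0.07 and 0.49.

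Akr1e1, the reductase of 1,5-anhydrofructose and the last gene of the Akr1c run, fell in C57BL/6. It read 265 and 281 in AKR/N controls, 385 and 354 at 8 h, 288 and 305 at 10 h, 186 and 261 at 12 h and 243 and 214 at 24 h, and was called at no time there. The C57BL/6 values were 428 and 444 in controls, 456 and 443 at 8 h, 296 and 273 at 10 h, 267 and 215 at 12 h and 193 and 219.9 at 24 h. The C57BL/6 arrays were all below the controls from 10 h on. The changes there were -0.59 ± 0.15 at 10 h (adjusted p = 0.0266), -0.82 ± 0.15 at 12 h (adjusted p = 0.00298) and -1.03 ± 0.15 at 24 h (adjusted p = 0.00018). The 10 h call ended with any one of 4 arrays left out (change -0.65 to -0.53, adjusted p 0.0785 to 0.138), and with the mean of all probe sets the 12 h change was -0.42 (adjusted p = 0.0451). Akr1d1 and Akr7a5 were called at no time, and the 6 uncalled aldo-keto reductases had changes between -1.16 and 0.60 over the 8 heat contrasts.

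The 4 carbonyl reductases went different ways. Cbr3, a quinone reductase and NRF2 target, read 21.1 and 36 in AKR/N controls, 28.5 and 43.8 at 8 h, 52.4 and 51.4 at 10 h, 171 and 184 at 12 h and 70.6 and 69.9 at 24 h. In C57BL/6 it read 43.9 and 31.3 in controls, 49.3 and 58.1 at 8 h, 150.1 and 71.8 at 10 h, 256 and 83.3 at 12 h and 170.1 and 164 at 24 h. From 10 h on all heated arrays stood above the controls in both strains, with the AKR/N peak at 12 h, and the C57BL/6 12 h arrays were far apart. The change was 2.14 ± 0.37 at 12 h (adjusted p = 0.00588) and 0.97 ± 0.37 at 24 h in AKR/N (adjusted p = 0.0754), and 1.63 ± 0.37 at 12 h (adjusted p = 0.0095) and 1.78 ± 0.37 at 24 h in C57BL/6 (adjusted p = 0.00202). The C57BL/6 12 h call ended without 12 h replicate 1 (change 0.90, adjusted p = 0.0668) or control replicate 2 (adjusted p = 0.0762), and the AKR/N 12 h call without control replicate 1 (adjusted p = 0.0539).

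Cbr4, a mitochondrial reductase known from fatty acid synthesis and quinone reduction, fell early. It read 464 and 506 in AKR/N controls, 530.3 and 510.5 at 8 h, 281 and 335 at 10 h, 208 and 330.3 at 12 h and 360.2 and 373 at 24 h. C57BL/6 arrays read 516 and 511 in controls, 428 and 469 at 8 h, 242 and 206 at 10 h, 237 and 151 at 12 h and 208 and 220.0 at 24 h. In both strains all arrays from 10 h on lay below the controls. In AKR/N the change was -0.85 ± 0.20 at 12 h (adjusted p = 0.0266) and -0.39 ± 0.20 at 24 h (adjusted p = 0.189), and the 12 h call ended without 12 h replicate 1 (change -0.53, adjusted p = 0.222), control replicate 1 (adjusted p = 0.0872) or control replicate 2 (adjusted p = 0.114). The C57BL/6 changes were -1.15 ± 0.20 at 10 h (adjusted p = 0.00504), -1.36 ± 0.20 at 12 h (adjusted p = 0.00106) and -1.20 ± 0.20 at 24 h (adjusted p = 0.000461), and each call held with each array left out.

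Cbr1, the main cytosolic carbonyl reductase and the neighbour of Cbr3 on chromosome 16, was lower at 12 h in C57BL/6 (-0.56 ± 0.17, adjusted p = 0.0333). Its arrays there read 129.7 and 85.3, against 158 and 169 in controls, and the call ended without 12 h replicate 2 (change -0.30, adjusted p = 0.287), control replicate 1 (adjusted p = 0.095) or control replicate 2 (adjusted p = 0.158). The array of 12 h replicate 2 is the one with the highest actin ratio. Cbr2, a mitochondrial reductase known from lung, fell at 24 h in C57BL/6, with 13.9 and 15.4 against 28.7 and 43.2 in controls, a change of -0.75 ± 0.27, adjusted p = 0.0399. Its 24 h mean lay under the filter value, and the call ended without 24 h replicate 1 (adjusted p = 0.144), 24 h replicate 2 (adjusted p = 0.103) or control replicate 2 (adjusted p = 0.247), and with a pseudocount of 64 (change -0.34, adjusted p = 0.0695).

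The heat contrasts of the 2 strains use different arrays, and 16 members were higher in both, which is 84.2% of the 19 called in AKR/N and 80% of the 20 called in C57BL/6. Over all genes tested, 1475 were higher in both, which is 76.3% of the 1932 called in AKR/N and 43.8% of the 3366 called in C57BL/6. The 16 members were Adh1, Adh5, Akr1a1, Akr1b8, Akr1c13, Akr1cl, Aldh1a1, Aldh1a3, Aldh1a7, Aldh5a1, Aldh7a1, Gsta2, Gsta4, Gstm7, Gsto1 and Gstp1. Gstt3 was the single member lower in both, which is 100% of the AKR/N list of 1 and 14.3% of the C57BL/6 list of 7. Over all genes 1180 were lower in both, 67.3% of 1754 in AKR/N and 45.0% of 2623 in C57BL/6. Called in AKR/N alone were 3 rises, Aldh6a1, Gsta3 and Gstm6. Called in C57BL/6 alone were 4 rises, Akr1c14, Aldh2, Aldh3a2 and Cbr3, where Akr1c14 was tested only through its 24 h groups, and 6 falls, Adh4, Akr1e1, Aldh1a2, Cbr2, Cbr4 and Gstz1, while 28 members were called in neither. Of the 24 h calls, 8 of 20 in AKR/N and 20 of 27 in C57BL/6 held with each of 4 arrays left out in turn.

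**Figure D4:**
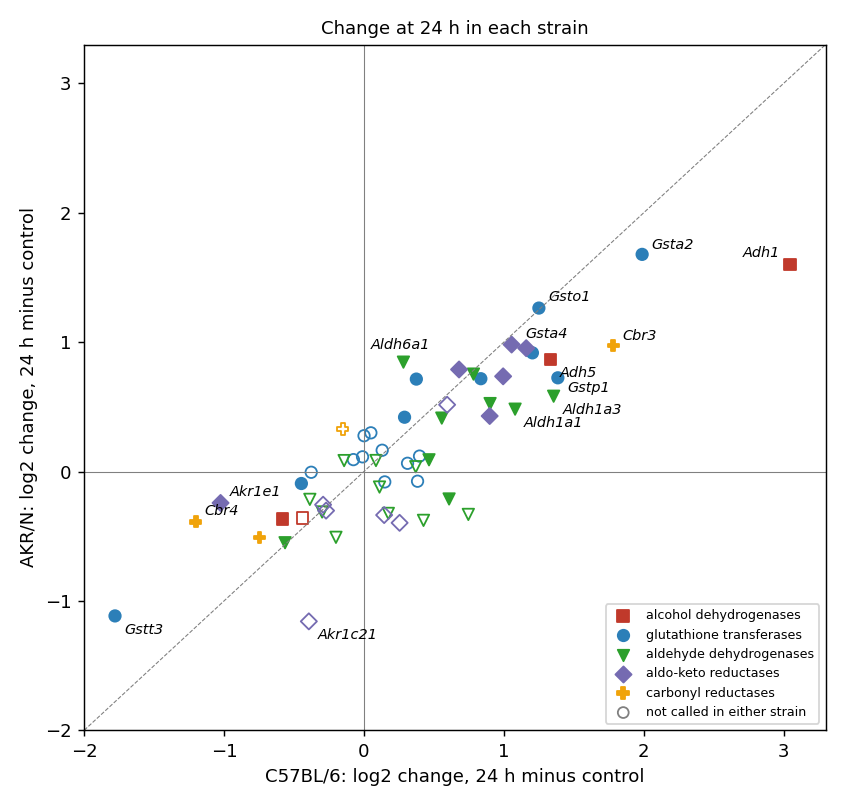
Log2 change at 24 h against controls of the same strain for the 58 tested members, C57BL/6 on the horizontal and AKR/N on the vertical axis. Symbols mark the enzyme family, open symbols members called in neither strain, and the dashed line equal change; Adh1 lies far below the line (1.60 in AKR/N, 3.04 in C57BL/6), and Gsto1 lies on it.

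Whether heat changed a member differently in the strains was tested directly, as the heat effect in AKR/N minus that in C57BL/6. Adh1 at 24 h was the single member called, with -1.44 ± 0.31 (adjusted p = 0.0404), the smaller rise on the log2 scale being in AKR/N. Its mean signal went from 197 in controls to 631 at 24 h in AKR/N, and from 45.7 to 489 in C57BL/6. The log2 difference thus goes with the lower control signal of C57BL/6. Over all genes 0.939% were called higher and 0.818% lower at 24 h, and 11 members had an unadjusted p under 0.05. The Adh1 call was lost with any one of 8 arrays left out (adjusted p 0.0758 to 0.139), and also without the filter on dim genes (0.0508), with quantile normalization (0.0504), with only the arrays compared (0.0612) and with median centring (-1.31, adjusted p = 0.104). Median centring split all genes at 24 h into 66 higher and 31 lower, where the main scaling gave 148 and 129. At 8, 10 and 12 h no member was called by limma, against a background of 0% higher and 0% lower at 8 h, 0.0127% and 0.019% at 10 h, and 0% and 0% at 12 h. Members with an unadjusted p under 0.05 numbered 3 at 8 h, 5 at 10 h and 5 at 12 h. Akr1e1 at 24 h (0.78 ± 0.22, adjusted p = 0.0758), Aldh2 at 24 h (adjusted p = 0.0814) and Aldh1a1 at 24 h (-0.60 ± 0.19, adjusted p = 0.109) missed the threshold.

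Several members differed between the strains in unheated testes. In controls 4 members were higher in AKR/N than in C57BL/6 and 2 lower, against 3.1% and 3.19% of all genes. Median centring split all genes into 292 higher and 488 lower, where the main scaling gave 488 and 503. Adh1 differed most, by 1.80 ± 0.22, adjusted p = 0.000205, with the control signals given above and no overlap. Aldh1a1 followed, with 3703 and 3667 in AKR/N against 1581 and 1622 in C57BL/6, a difference of 1.19 ± 0.13, adjusted p = 8.46e-05. Both differences held with each control array left out. Gsta3 was higher by 0.69 ± 0.14, adjusted p = 0.00965, and Aldh4a1, the mitochondrial enzyme of proline breakdown, read 59.8 and 82.4 in AKR/N, against 34.6 and 33.2 in C57BL/6, a difference of 0.79 ± 0.20, adjusted p = 0.0298. Lower in AKR/N were Akr1e1 (-0.64 ± 0.15, adjusted p = 0.0226) and Adh7, which read 60.6 and 40.2 in AKR/N, against 81.1 and 107 in C57BL/6 (-0.74 ± 0.19, adjusted p = 0.0338). A second Adh7 probe set differed the other way, by 0.70. The call of Gsta3 ended without AKR/N replicate 2 (adjusted p = 0.0707), C57BL/6 replicate 1 (adjusted p = 0.0644) or C57BL/6 replicate 2 (adjusted p = 0.0677), that of Aldh4a1 without AKR/N replicate 2 (adjusted p = 0.163), C57BL/6 replicate 1 (adjusted p = 0.121) or C57BL/6 replicate 2 (adjusted p = 0.155), that of Akr1e1 with any one of 4 arrays left out (change -0.69 to -0.60, adjusted p 0.0592 to 0.15) and that of Adh7 without AKR/N replicate 2 (adjusted p = 0.197), C57BL/6 replicate 1 (adjusted p = 0.0537) or C57BL/6 replicate 2 (adjusted p = 0.261). Median centring ended the calls of Gsta3 (0.0541) and Aldh4a1 (0.0716).

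Over the mean of all 5 conditions, 11 members were higher in AKR/N and 6 lower, against 14.9% and 12.9% of all genes. The smallest adjusted p-values were those of Aldh1a1 (0.92 ± 0.06, adjusted p = 5.92e-08), Aldh1a7 (-0.78 ± 0.07, adjusted p = 1.05e-06), Adh1 (1.0 ± 0.10, adjusted p = 4.77e-06), Gsta2 (-0.88 ± 0.09, adjusted p = 7.17e-06), Aldh4a1 (0.70 ± 0.09, adjusted p = 4.36e-05) and Adh7 (-0.66 ± 0.08, adjusted p = 5.42e-05). The second Adh7 probe set differed the other way here too, by 0.25, and the mean of the Adh7 probe sets gave -0.21 (adjusted p = 0.0437). The adjacent paralogs Aldh1a1 and Aldh1a7 thus differed in opposite directions, Aldh1a1 being higher and Aldh1a7 lower in AKR/N. Gsta2 was lower in AKR/N, while Gsta3 (0.45) and Gsta4 (0.40) were higher. Also higher were Aldh9a1, Cbr2, Cbr4, Gstt1, Gstt3 and Akr1cl, by 0.27 to 0.48, and lower were Gsto1 (-0.57), Cbr3 (-0.48) and Gstt4 (-0.22). The other Gsto1 probe set gave 0.04. This mean takes in the heated groups, and of its calls only Aldh1a1, Adh1, Aldh4a1, Adh7 and Gsta3 were also called between controls. For Cbr4 and Gstt3 the AKR/N control means were the lower ones, 485 against 513 and 196 against 211 in C57BL/6. At 24 h the means were 367 in AKR/N against 214 in C57BL/6 for Cbr4 and 84.2 against 49.9 for Gstt3. Of the 17 calls, 13 held with each of 20 arrays left out in turn. Gstt3 lost its call without C57BL/6 control replicate 1 (change 0.30, adjusted p = 0.0503), and Gstt4 without AKR/N 8 h replicate 2 (0.0524), AKR/N 24 h replicate 2 (0.0502) or C57BL/6 24 h replicate 2 (0.0531). Cbr3 lost it without any array but AKR/N 8 h replicate 2, AKR/N control replicate 2, C57BL/6 10 h replicate 2 or C57BL/6 12 h replicate 2 (adjusted p 0.0542 to 0.0981). Akr1cl lost it without replicate 1 of AKR/N controls, 8, 12 or 24 h, replicate 2 of AKR/N 8 or 10 h, replicate 1 of C57BL/6 10 h or replicate 2 of C57BL/6 controls, 8, 12 or 24 h (0.0535 to 0.0717), and with the mean of its probe sets (change 0.07, adjusted p = 0.558). Probes were designed on one sequence, and whether a sequence difference of the strains under a probe moves these signals was not tested.

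Among the controls, Leydig cell markers also differed, with 5 of 10 tested higher and 1 lower in AKR/N, for example Cyp17a1, a steroid hydroxylase (1.04 ± 0.19, adjusted p = 0.00468), and Star, which carries cholesterol into mitochondria (1.71 ± 0.22, adjusted p = 0.000245). Their summed signal was 6571 to 6815 in AKR/N controls and 5794 to 5960 in C57BL/6 controls. Of 7 tested genes of steroid synthesis 5 were higher in AKR/N controls. Over all genes tested, 3.1% were higher and 3.19% lower in AKR/N controls. The part of Leydig cells in the strain differences of Adh1 and Aldh1a1 was not tested.

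Genes of the same pathways outside the families were taken from lists. They were read at 24 h against controls of the same strain. For the counts of all lists below, the shares over all genes tested were 12.3% higher and 11.1% lower in AKR/N. In C57BL/6 these shares were 21.4% and 16.6%. Of the NRF2 targets outside the families, 10 of 20 tested were higher in AKR/N and 18 of 20 in C57BL/6, none was lower, and the medians were 0.59 in AKR/N, against -0.01 for all genes, and 0.92 in C57BL/6, against 0.08. Pgd, of the pentose phosphate pathway, changed by 1.10 ± 0.14 in AKR/N (adjusted p = 0.000418) and 1.93 ± 0.14 in C57BL/6 (adjusted p = 2.41e-06). Txn1, thioredoxin, changed by 1.33 ± 0.13 in AKR/N (adjusted p = 0.000145) and 1.66 ± 0.13 in C57BL/6 (adjusted p = 3.42e-06), and Sqstm1, an autophagy receptor, by 0.57 ± 0.16 in AKR/N (adjusted p = 0.0189) and 1.36 ± 0.16 in C57BL/6 (adjusted p = 2.98e-05). Of 26 tested genes of glutathione synthesis, recycling and peroxidases, 5 were higher and 1 lower in AKR/N, and 9 higher and 1 lower in C57BL/6. Slc3a2, the heavy chain of the cystine transporter, rose in both, by 0.53 ± 0.14 in AKR/N (adjusted p = 0.015) and 0.69 ± 0.14 in C57BL/6 (adjusted p = 0.00151). Idh1, a source of NADPH, changed by 0.31 ± 0.21 in AKR/N (adjusted p = 0.324) and 1.16 ± 0.21 in C57BL/6 (adjusted p = 0.000834), and Hagh, a glyoxalase, by -0.44 ± 0.15 in AKR/N (adjusted p = 0.052) and -1.03 ± 0.15 in C57BL/6 (adjusted p = 0.000177).

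Of 16 tested genes of the wider transferase superfamily and of conjugate export, 3 were higher in AKR/N and 6 higher and 1 lower in C57BL/6. Mgst1, a microsomal transferase, rose by 1.09 ± 0.14 in AKR/N (adjusted p = 0.000373) and 1.44 ± 0.14 in C57BL/6 (adjusted p = 9.38e-06). Clic1, a transferase-fold channel protein, rose by 0.67 ± 0.20 in AKR/N (adjusted p = 0.0255) and 1.41 ± 0.20 in C57BL/6 (adjusted p = 0.000114), and Abcc1, the exporter of glutathione conjugates, by 0.80 ± 0.14 in AKR/N (adjusted p = 0.00217) and 0.64 ± 0.14 in C57BL/6 (adjusted p = 0.00352). Of 15 tested xenobiotic receptors and phase I and II enzymes, 2 were higher in AKR/N and 10 in C57BL/6, and none was lower. Aox1, an aldehyde oxidase, rose in both, by 0.62 ± 0.20 in AKR/N (adjusted p = 0.0379) and 1.18 ± 0.20 in C57BL/6 (adjusted p = 0.000453), while Maoa, which makes aldehydes from amines, changed by 0.22 ± 0.15 in AKR/N (adjusted p = 0.328) and 0.95 ± 0.15 in C57BL/6 (adjusted p = 0.000335).

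Of 25 tested genes of retinoid synthesis, breakdown, binding and response, 1 was higher and 1 lower in AKR/N, against 12.3% and 11.1% of all genes. In C57BL/6, 5 were higher and 2 lower, against 21.4% and 16.6%, so neither strain had a share above that of all genes. Stra8, the retinoic acid target of germ cells entering meiosis, changed by 0.81 ± 0.14 in AKR/N (adjusted p = 0.00185) and 1.43 ± 0.14 in C57BL/6 (adjusted p = 9.81e-06). Dhrs4, a reductase of retinal, fell by 0.78 in AKR/N and by 1.0 in C57BL/6. Of 7 tested genes of steroid synthesis, 2 were lower in AKR/N, and 3 were higher and 2 lower in C57BL/6. Cyp17a1 fell in both, by 1.24 in AKR/N and by 1.24 in C57BL/6, while Star changed by -0.45 ± 0.22 in AKR/N (adjusted p = 0.147) and 2.87 ± 0.22 in C57BL/6 (adjusted p = 2.41e-06).

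Cell type markers also changed at 24 h, and some were called earlier. In C57BL/6, 2 of 10 tested Leydig markers were higher at 8 h, against 0.0888% of all genes. At 10 h there 4 of 12 pachytene markers were lower, against 5.19%, and at 12 h 5 of 13 Sertoli markers were higher, against 9.71%. None of these lists had a call the other way at the time named. Over all genes tested, 12.3% were higher and 11.1% lower at 24 h in AKR/N, and 21.4% and 16.6% in C57BL/6. Markers of Sertoli cells were higher for 4 of 13 tested in AKR/N at 24 h and for 5 in C57BL/6, where 1 was lower, and their summed signal was 19344 to 20206 in heated AKR/N testes at 24 h, against 14496 to 14741 in controls, and 19120 to 19690 in heated C57BL/6 testes, against 12562 to 12625 in controls. Pachytene spermatocyte markers fell for 6 of 12 in AKR/N and for 8 in C57BL/6, where 1 rose, with sums of 23873 to 24424 in AKR/N at 24 h, against 27000 to 27973 in controls, and 21964 to 23034 in C57BL/6, against 26993 to 27657 in controls. Macrophage and leukocyte markers rose for 4 of 14 in AKR/N and 6 in C57BL/6, with none lower, and sums of 2022 to 2195 in AKR/N at 24 h, against 1429 to 1557 in controls, and 1582 to 1651 in C57BL/6, against 986 to 1005 in controls. At 24 h, when most enzyme rises were called, the summed Sertoli and macrophage signals were thus higher and the summed pachytene signal lower than in controls. The spermatid sums, given below, were lower only for elongating spermatids in AKR/N.

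Endothelial markers rose for 1 of 8 in AKR/N and 4 in C57BL/6, with sums of 375 to 409 in AKR/N at 24 h, against 287 to 302 in controls, and 435 to 487 in C57BL/6, against 236 to 240 in controls. Peritubular myoid markers rose for 4 of 8 in AKR/N and 2 in C57BL/6, with sums of 4287 to 4669 in AKR/N at 24 h, against 3270 to 3699 in controls, and 4145 to 4415 in C57BL/6, against 3555 to 3636 in controls. Leydig markers were 2 higher and 2 lower of 10 in AKR/N and 6 higher and 2 lower in C57BL/6, with sums of 5504 to 5624 in AKR/N at 24 h, against 6571 to 6815 in controls, and 7045 to 7794 in C57BL/6, against 5794 to 5960 in controls. The summed Leydig signal was therefore lower after heat in AKR/N and higher in C57BL/6, but a sum is led by its brightest genes. The median change of the 10 Leydig markers at 24 h was 0.03 in AKR/N and 0.47 in C57BL/6, so the list as a whole did not fall in AKR/N. Round spermatid markers were higher for 3 and lower for 1 of 12 in AKR/N and higher for 5 and lower for 1 in C57BL/6, elongating spermatid markers higher for 1 of 12 in AKR/N and 2 in C57BL/6, and spermatogonial markers higher for 2 of 11 in AKR/N and higher for 2 and lower for 1 in C57BL/6. The round spermatid sum at 24 h was 19503 to 20080 in AKR/N, against 15801 to 19080 in controls. In C57BL/6 it was 24736 to 26191, against 21387 to 22162 in controls. The elongating spermatid sum at 24 h was 86938 to 87315 in AKR/N, against 87573 to 90820 in controls. In C57BL/6 it was 97787 to 99978, against 82027 to 87290 in controls. The spermatogonial sum at 24 h was 1839 to 1874 in AKR/N, against 1579 to 1746 in controls. In C57BL/6 it was 1442 to 1534, against 1554 to 1562 in controls. No marker of adipose tissue (5 tested), liver (3) or red blood cells (2) was called at 24 h in either strain, and of 4 epididymal ones 1 was lower in C57BL/6. The summed signal of the adipose markers was 359 to 410 in AKR/N at 24 h, against 356 to 432 in controls, and 609 to 1253 in C57BL/6, against 495 to 891 in controls. The part of these cells in the changes of the enzymes was not tested.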

How the data were processed

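The data are 20 arrays (Affymetrix mouse expression arrays) of whole mouse testes. The deposited values are probe-set intensity on a linear scale, already scaled, with a 2% trimmed mean that is the same on every array, as checked on the values. The sources used here do not name the software that summarised the probes or its settings, and the scanner images were not used. RNA was extracted and labelled with a one-cycle 3' kit, per the labels, so signals weight the 3' end of transcripts.

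Of 45101 probe sets, 64 are controls, 34945 carry 1 gene symbol, 932 several and 9160 none. Each gene was represented by its single-gene probe set with the highest mean log2(signal + 16), and all 65 members matched RefSeq genes by Entrez identifier. Genes were tested where the highest group mean reached the 40th percentile of probe-set means (signal 17.5). limma 3.58.1 in R 4.3.3 was fitted with 1 mean per group over 20 arrays, with Benjamini-Hochberg adjustment over 15762 genes, and was tested on simulated data. Tests were each time minus control within a strain, AKR/N minus C57BL/6 in controls and over 5 conditions, and the difference of heat effects. Alternatives were pseudocounts of 1 and 64, no filter, median centring, quantile normalization, the mean of all probe sets, probe sets without a suffix, only the arrays compared, a replicate block and each array left out. Precision is limited by 2 arrays per group. No pair of arrays held identical values.

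Members and lists were chosen with earlier results of these data known. Named are, per family, up to 8 members with the smallest adjusted p over the heat contrasts, up to 6 per strain or difference contrast, the other members by count and range, and up to 3 genes per list by their 24 h adjusted p. Tables were handled with pandas 2.3.3 in Python 3.11.15 and figures drawn with matplotlib 3.10.9.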

Additional observations from a re-analysis of the deposited data

Results flagged for a closer look

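Adh1, the class I alcohol dehydrogenase, was singled out because its heat effect at 24 h differed between the strains in a direct test. The difference, AKR/N minus C57BL/6, was -1.44 ± 0.31 on the log2 scale (limma, adjusted p = 0.0404, 2 arrays per group). Adh1 rose in both strains, by 1.60 in AKR/N and 3.04 in C57BL/6, and its control signals were 181 and 214 in AKR/N and 38.2 and 53.1 in C57BL/6. The call was lost with any one of the 8 arrays left out (-1.62 to -1.27, adjusted p 0.0758 to 0.139).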

How the results depend on the processing

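Of 923 values of the 105 calls on members under other settings, 811 were still called, as were 500 of 696 with an array left out, and 5 changed sign. With the mean of all probe sets these were Adh5 at 10 h (-0.034) and Aldh7a1 at 12 h (-0.181) in C57BL/6 and Aldh7a1 at 24 h in AKR/N (-0.055), and with probe sets without a suffix Gsto1 at 12 h in C57BL/6 (-0.150) and over 5 conditions (0.044). For Adh5 and Aldh7a1 that mean takes in a probe set under the filter value in every group. Median centring left 3 called members at 12 h in AKR/N, 3 at 10 h and 9 at 12 h in C57BL/6. Fitting only the arrays compared left 3 at 12 h in AKR/N, 4 at 10 h and 9 at 12 h in C57BL/6, and 2 between controls. A pseudocount of 64 gave 1 call at 10 h in AKR/N, where the main setting gave 0. Members lower at 24 h in AKR/N were 2, in place of 1, with a pseudocount of 64, median centring, quantile normalization or the mean of probe sets. For the difference of heat effects at 24 h the count of 1 became 3 with a pseudocount of 64, 2 with the mean of probe sets, and 0 without the filter, with median centring, quantile normalization, the replicate block or only the arrays compared. With 1 array left out, members called ranged from 0 to 3 at 12 h and, at 24 h, 8 to 14 higher and 0 to 2 lower in AKR/N. In C57BL/6 they ranged from 1 to 2 at 10 h, 5 to 12 at 12 h and, at 24 h, 17 to 20 higher and 3 to 5 lower. They ranged from 2 to 5 between controls, 14 to 19 over 5 conditions and 0 to 0 for the differences of heat effects. Under the other settings the rises at 24 h stayed between 15 and 19 in AKR/N and between 18 and 21 in C57BL/6. Over 45 pairs of groups the deviations of same-numbered arrays correlated with r from -0.28 to 0.30 (median -0.01), and 4 pairs exceeded 0.1. Such values cannot show whether same-numbered arrays were handled together, so whether the replicate numbers pair the samples is not known. In the fit with the replicate block the Adh1 difference at 24 h was -1.44 with an adjusted p of 0.0551. That fit also ended the calls of Akr1a1 at 12 h in AKR/N (adjusted p 0.0536) and at 10 h in C57BL/6 (0.0521), Aldh7a1 (0.0517) and Gstk1 (0.0511) at 12 h in C57BL/6, Gstz1 at 24 h in C57BL/6 (0.0606) and Cbr3 over 5 conditions (0.0511), and no other call on a member. Genes near the dim end, such as Akr1c14, Aldh1l2 and Cbr2, are the ones whose size the signal over background limits most.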

Other observations

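Among members that were called at no time, a few had changes as large as those of called members. Aldh3a1, an aldehyde dehydrogenase best known from cornea, changed by -0.33 in AKR/N and by 0.75 in C57BL/6 at 24 h (limma, adjusted p = 0.0519 in C57BL/6), and Aldh8a1 by -0.38 in AKR/N and 0.43 in C57BL/6. A second Aldh8a1 probe set changed the other way in each strain, by 0.22 in AKR/N and -0.08 in C57BL/6. The direct test of the strain difference at 24 h gave -1.08 for Aldh3a1 (adjusted p = 0.16) and -0.80 for Aldh8a1 (adjusted p = 0.224). Akr1b10, next to Akr1b8 on chromosome 6, had 2 other probe sets, which changed by 0.79 and 0.84 in AKR/N and by 0.53 and 0.84 in C57BL/6 at 24 h. Gstm1 had 3 other probe sets, which changed by 0.49, 0.37 and 0.35 in AKR/N and by 0.35, 0.40 and 0.25 in C57BL/6, while the probe set reported above changed by 0.28 in AKR/N and 0.00 in C57BL/6.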
